A study of Mus musculus with 6 samples.

Results

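The 47 genes described here encode the enzymes, and a few of their obligate subunits, that write, erase and act on DNA methylation and histone modifications. They were chosen by name. They comprise 3 DNA methyltransferases, 3 DNA demethylation dioxygenases of the Tet family, 4 genes of Polycomb repressive complex 2, 3 H3K4 methyltransferases, 5 H3K9 methyltransferases, 4 H3K36 and H3K79 methyltransferases, 7 histone demethylases, 9 histone deacetylases, 6 histone acetyltransferases and 3 chromatin remodellers. All 47 were found among the 21362 gene names of the count table. Not every one of them is catalytic, since Eed, Suz12 and Arid1a are subunits that serve an enzyme. RNA sequencing was carried out on 6 libraries of mouse CD4+ T cells, the helper and regulatory T lymphocytes, in a study of sorafenib, an oral kinase inhibitor given in liver and kidney cancer. The labels describe every library as the same cell type and give no strain, age, dose, time or number of animals. They also do not say which libraries came from sorafenib-treated cells, or whether separate mice or cultures gave rise to the 6 libraries. For this reason the libraries were neither grouped nor averaged, and the effect of sorafenib was not analysed here. Numbers in the titles name them, from library 1 to library 6, and a run of 6 values is in that order. Levels are in CPM, the reads of a gene per 1000000 reads of its library after a TMM correction for composition. Where FPKM is named, the value is also divided by gene length. Range means the highest library over the lowest, on a log2 scale with a prior count of 2 added to the counts.

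DNA methylation at CG dinucleotides is copied onto new strands by a maintenance methyltransferase, is laid down by de novo enzymes, and is removed after oxidation by Tet enzymes or by dilution in dividing cells. Methyltransferases and acetyltransferases place marks on histone tails, demethylases and deacetylases take them off, and remodellers move the nucleosomes themselves. In CD4+ T cells these enzymes are known for keeping the cytokine loci of other helper lineages silent and for setting the demethylated state of Foxp3 enhancers in regulatory T cells.

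Total counts ran from 32435799 to 36316162 per library, and the 47 genes took between 0.691% and 0.732% of them. The T cell receptor subunit Cd3e was at 200.3 to 218 CPM and the co-receptor Cd4 at 412 to 482 CPM in the 6 libraries. Foxp3, the defining factor of regulatory T cells, was at 7.37 to 13.4 CPM, while Cd8a, a chain of the co-receptor of CD8 T cells, stayed between 0.231 and 0.661 CPM. Its partner chain Cd8b1 was higher, the only gene on the marker list of CD8 T and NK cells to average 1 CPM or more. Cd8b1 held most of the reads of that list. Marker lists of CD8 T and NK cells, B cells and myeloid cells summed to at most 10.6, 8.17 and 13.0 CPM. Their part in the results below was not tested.

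Libraries 1, 2 and 3 stood apart from libraries 4, 5 and 6 over all genes, and so did the few enzymes that varied. Between libraries 1 and 2, 1 and 3, and 2 and 3, 0 of the 46 enzymes averaging 1 CPM or more differed 1.5-fold or more, and 2.61%, 2.72% and 2.07% of all 11516 genes at that level did. Between libraries 4 and 5, 4 and 6, and 5 and 6, again 0 of the 46 did, against 1.91%, 2.36% and 2.06% of all genes. Library 1 differed from libraries 4, 5 and 6 in 5, 3 and 7 enzymes, where 15.1%, 14.9% and 15.5% of all genes differed. Library 2 differed from them in 3, 2 and 5 enzymes, where 14.3%, 13.8% and 14.4% of all genes did, and library 3 in 2, 2 and 5, where 13.1%, 13.0% and 13.4% did. In the pair with the most, Hdac5 was higher in library 1 and Dnmt1, Tet1, Suv39h1, Suv39h2, Nsd2 and Kat2a were higher in library 6. The median absolute difference over the 46 genes was below that over all genes in each of the 15 pairs. Between libraries 1 and 6, for example, it was 0.20 against 0.22 on the log2 scale, with no matching for level. Which of these libraries, if any, were treated is not known here, so this separation has no name.

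Most of these genes, like most of all genes, ranged less than 1.5-fold. The minimum mean of 1 CPM left out Hdac9 alone. Of the 46 others, 7 (15.2%) ranged 1.5-fold or more: Dnmt1, Tet1, Suv39h1, Suv39h2, Nsd2, Kat2a and Hdac5. Across all 11516 genes at that level, 27.6% did so. A range of 2-fold or more was seen for Suv39h2 alone, against 10.5% of all genes. The median range was 1.19-fold over the 46 genes and 1.29-fold over all genes. Low genes ranged more widely, and for the 9605 genes averaging 5 CPM or more the shares were 17.3% at 1.5-fold and 4.69% at 2-fold. With that minimum, 45 of the enzymes remained, of which 6 reached 1.5-fold and 0 reached 2-fold. At 1.5-fold this is not far below the share of all genes with that minimum. Counts for single classes and lists below rest on few genes and are to be read beside these shares. No class or list was tested against all genes. No set of genes matched for level was formed, so the part of level in the narrower ranges was not tested. Just outside the threshold were Ezh1 and Dnmt3b, both at 1.48-fold, Kdm5b at 1.47-fold and Tet2 at 1.45-fold, and just inside it was Nsd2 at 1.54-fold. Dnmt1 and Nsd2 fell below the threshold when library 6 was left out, at 1.48-fold and 1.40-fold, as did Kat2a without library 1, at 1.49-fold, and Suv39h2 fell below 2-fold without either of these libraries. The narrowest ranges, 1.08-fold, belonged to Nsd1, Crebbp, Arid1a, Kdm6b and Kdm4a.

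**Figure D1:**
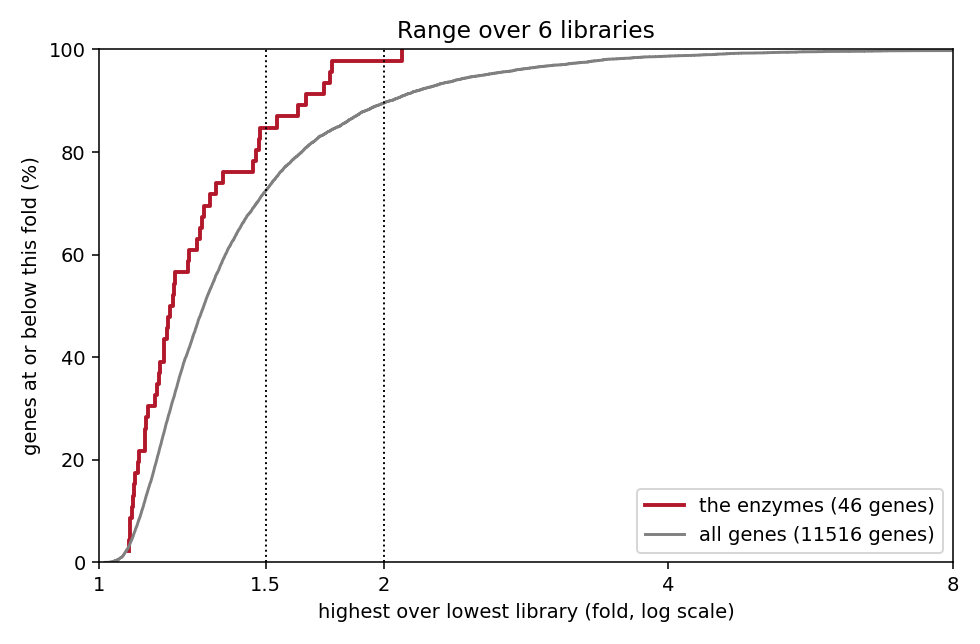
Share of genes (vertical axis, percent) whose highest library is at or below a given fold over their lowest (horizontal axis, log scale), for the 46 enzymes averaging 1 CPM or more (red) and all 11516 such genes (grey). Dotted lines mark 1.5-fold and 2-fold, and the red curve lies to the left of the grey one, with medians of 1.19-fold and 1.29-fold. The grey genes were not matched to the enzymes for level.

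The genes did not move as a block. The median over the 46 genes of log2 CPM minus each gene's own median was 0.04, 0.01, 0.00, -0.03, -0.02 and 0.00 in libraries 1 to 6, a spread of 0.07 on the log2 scale, where all genes together spread by 0.01. Library 1 was the highest for 13 genes (28.3%) and the lowest for 9 (19.6%), against 18.7% and 22.6% of all genes. Library 6 was the highest for 9 (19.6%) and the lowest for 10 (21.7%), against 21.2% and 15.6% of all genes. Library 4 was the lowest for 14 (30.4%) and the highest for 2 (4.35%), against 18.2% and 16.5% of all genes. Of the 7 widest ranging genes, 6 were lowest in library 1 or library 3 and highest in library 4, 5 or 6, and Hdac5 had the opposite order. Scaling by total counts alone shifts all genes by up to 0.12 on the log2 scale between libraries, so the order of libraries means little for the flattest genes. Under that scaling 28 of the 46 kept the same lowest and the same highest library, and all 7 widest ranging genes kept the same highest library. Of the 14 genes lowest in library 4, Suz12, Ehmt1, Kdm1a, Hdac1, Hdac2, Hdac3 and Kat5 then had another lowest library.

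**Figure D2:**
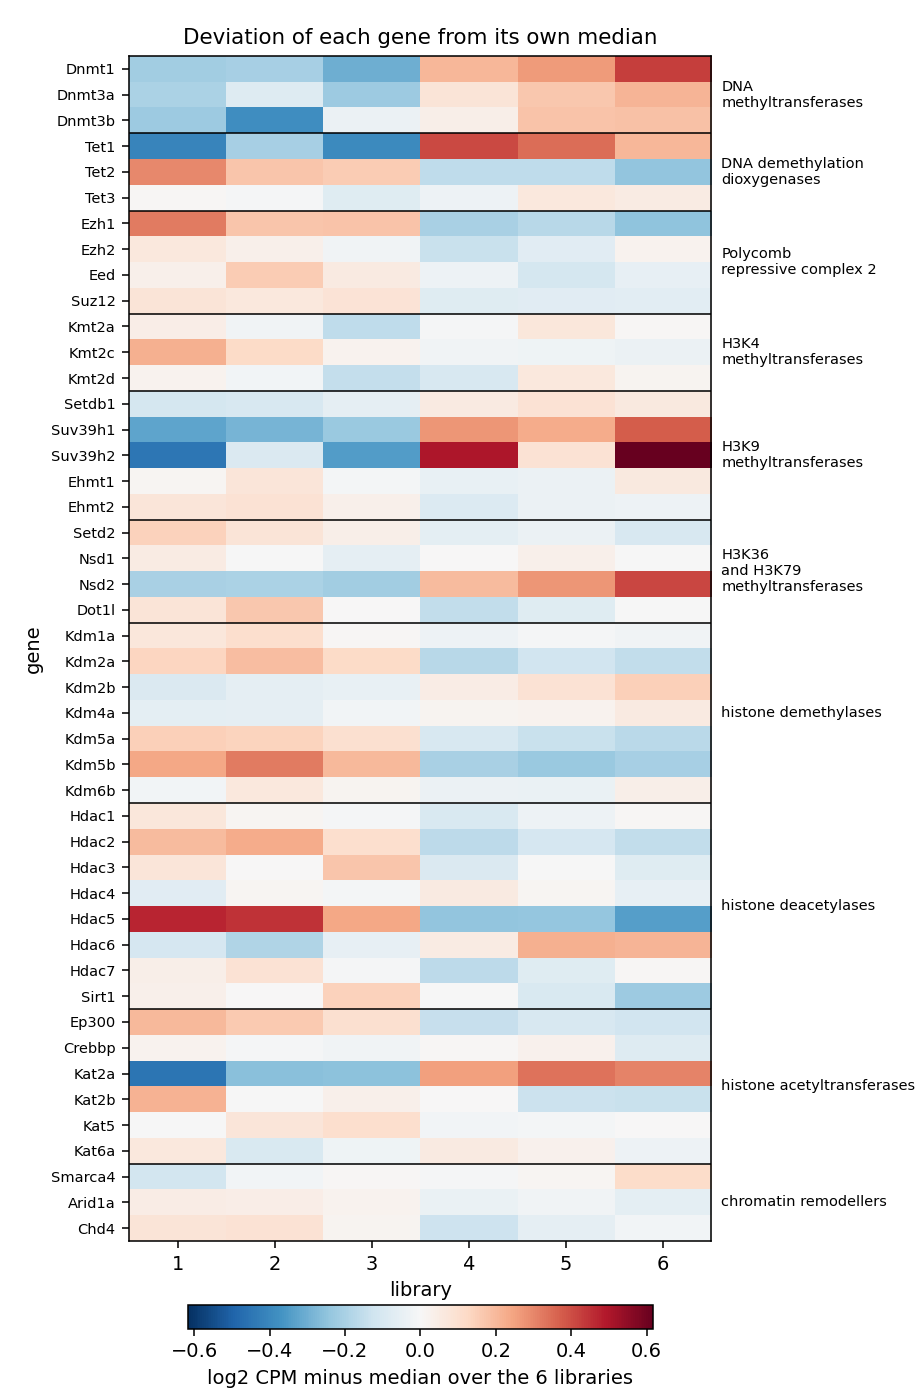
Deviation of each of the 46 genes (rows, by class) from its own median in each of the 6 libraries (columns), as log2 CPM with the colour scale in log2 units, red above and blue below the median. The strongest colours lie in the rows of Suv39h2, Tet1, Kat2a, Dnmt1, Nsd2, Suv39h1 and Hdac5, and Hdac5 is red in libraries 1 to 3 where the other 6 are blue.

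Proliferation markers ranged more widely than the enzymes in the same libraries. Each of 12 cell cycle genes on a marker list passed 1.5-fold, against 27.6% of all genes averaging 1 CPM or more. At 2-fold 10 did, against 10.5% of all genes. The list was chosen with earlier results of these data known, so these counts are a description only. Mki67, whose product is the Ki-67 antigen of dividing cells, was at 80.1, 86.9, 72.7, 203, 209 and 259.9 CPM. Top2a, which encodes a topoisomerase of mitotic chromosomes, was at 138, 144, 128, 292, 302 and 358 CPM. Both were higher in each of libraries 4, 5 and 6 than in each of libraries 1, 2 and 3, and all 12 markers were highest in library 6. The median deviation of the list was -0.57, -0.48, -0.63, 0.50, 0.52 and 0.76 on the log2 scale. In bulk RNA, more cells of a kind and more RNA of a gene per cell cannot be told apart, and the part of proliferation in the values below was not tested.

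Among the DNA methyltransferases, Dnmt1 had the widest range. Dnmt1, the maintenance enzyme that copies methylation after replication, was at 121, 122, 114, 162, 169 and 189 CPM, a range of 1.65-fold. Counting error gave 95% intervals of 184 to 193 CPM for library 6, the highest, and 111 to 118 CPM for library 3, the lowest. Every one of libraries 4, 5 and 6 lay above every one of libraries 1, 2 and 3. Dnmt3a, the main de novo enzyme of T cells, had the same order of libraries, at 179.8, 195, 176, 217, 231 and 239 CPM and 1.35-fold. Dnmt3b, its relative of early embryos, was low, at 7.18, 6.42, 8.17, 8.60, 9.49 and 9.50 CPM, and 11.5% of the 50-base stretches of its transcript are shared with Dnmt3c, so reads of the pair may be divided between them. All 3 methyltransferases were highest in library 6, except that Dnmt3b was highest in library 5 and ranged 1.60-fold when scaled by total counts.

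The Tet enzymes did not share an order of libraries. Tet1 was at 15.1, 17.3, 15.2, 26.6, 25.4 and 23.1 CPM, with libraries 4, 5 and 6 above libraries 1, 2 and 3 and a range of 1.76-fold. Tet2 was at 176, 162, 160.0, 129, 129 and 121 CPM and stood in the reverse order, with libraries 1, 2 and 3 above the others and a range of 1.45-fold. Both oxidise 5-methylcytosine, and Tet2 and Tet3 are the family members usually found in T cells. Tet3 stayed level at 222, 219.9, 210.3, 217, 231 and 229 CPM, a range of 1.10-fold, and library 5 was its highest and library 3 its lowest.

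Of the other genes of DNA methylation and its readers, 3 of the 14 averaging 1 CPM or more passed 1.5-fold, namely Uhrf1, Hells and Mbd4. That is 21.4%, against 27.6% of all genes at that level. Uhrf1, which recognises hemimethylated DNA and brings Dnmt1 to it, was at 41.6, 40.8, 37.3, 69.5, 69.9 and 85.5 CPM and ranged 2.29-fold. Hells, a remodeller needed for normal DNA methylation, was at 30.8, 30.4, 30.5, 61.5, 62.8 and 62.3 CPM and ranged 2.07-fold. Both had libraries 4, 5 and 6 above libraries 1, 2 and 3, as Dnmt1 did. These were the 2 genes past 2-fold among 121 other enzymes and subunits of the same pathways, of which 14 ranged 1.5-fold or more and whose median range was 1.25-fold. Mbd4, a glycosylase that repairs mismatches at CG sites, was at 10.3, 12.2, 11.2, 12.9, 13.3 and 15.7 CPM. Of the others, the reader Mbd2 ranged 1.28-fold and the thymine glycosylase Tdg, which completes demethylation after Tet, ranged 1.23-fold. Dnmt3l, a cofactor of the de novo enzymes in germ cells, was listed at 0 counts in 4 libraries and under the floor of 3 counts in the other 2.

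**Figure D3:**
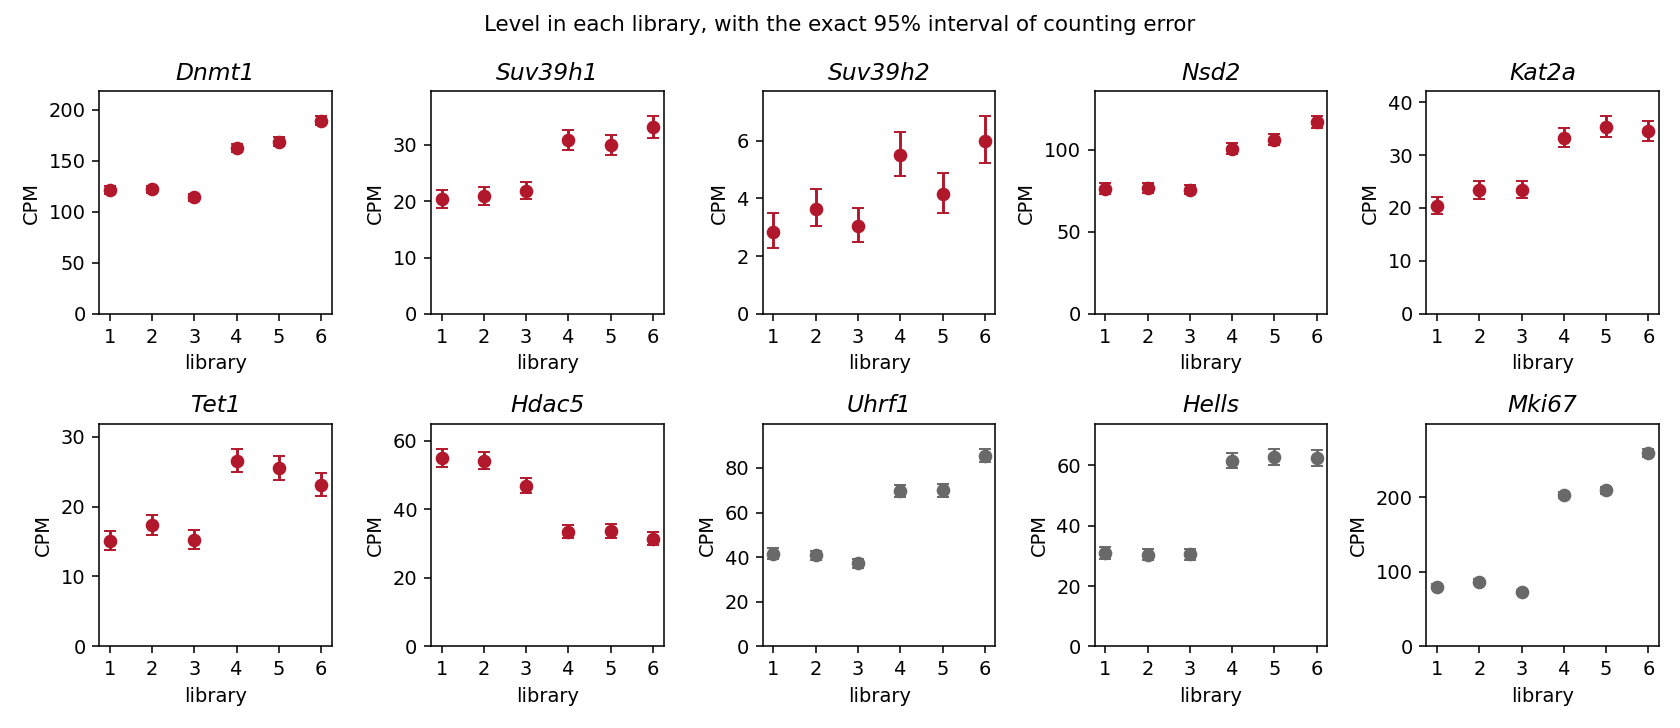
CPM (vertical axes, each from 0) in libraries 1 to 6 (horizontal axes) of the 7 enzymes ranging 1.5-fold or more (red) and of Uhrf1, Hells and Mki67 (grey), with exact 95% intervals of counting error as bars. In 9 of the 10 panels libraries 4 to 6 lie above libraries 1 to 3, and in the panel of Hdac5 they lie below.

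Promoter sequences were searched because Dnmt1, Uhrf1 and many replication genes are known in mammals as targets of E2F factors. Whether such letters play a part in the levels was not tested. Windows of Uhrf1, which is not in the set of 47, are not described. RefSeq start sites of the assembly GRCm38.p6 gave 56 windows, from 250 bases before to 50 bases after the start, for 39 of the 47 genes. The letters of an E2F site were searched as TTTCCCGC or TTTGGCGC, and a cell cycle homology region (CHR) as TTTGAA, on both strands. These motifs do not overlap in any window printed here. An E2F sequence was present in 4 of the 56 windows (7.14%), 1 for each of 4 genes, against 1.56% of all 32851 windows. Both E2F words hold a CG, and the median GC content was 68.2% in the 56 windows against 52.7% over all windows. No background of like composition was used, so this difference cannot be read as an enrichment of E2F sites. A CHR sequence was present in 9 of the 56 (16.1%), against 17.9% of all windows. The 4 windows with E2F letters, and that of Suv39h2, the widest ranging gene, are shown 5′ to 3′ with both kinds of match in capitals.
Dnmt1, chr9:20952574-20952873, minus strand: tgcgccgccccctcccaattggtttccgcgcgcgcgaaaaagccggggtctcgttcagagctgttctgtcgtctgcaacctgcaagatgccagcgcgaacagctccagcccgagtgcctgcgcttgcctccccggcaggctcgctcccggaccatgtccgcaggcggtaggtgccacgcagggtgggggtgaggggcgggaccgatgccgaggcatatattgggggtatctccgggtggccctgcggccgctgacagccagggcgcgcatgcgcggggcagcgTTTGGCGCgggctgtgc
Ezh2, chr6:47594981-47595280, minus strand: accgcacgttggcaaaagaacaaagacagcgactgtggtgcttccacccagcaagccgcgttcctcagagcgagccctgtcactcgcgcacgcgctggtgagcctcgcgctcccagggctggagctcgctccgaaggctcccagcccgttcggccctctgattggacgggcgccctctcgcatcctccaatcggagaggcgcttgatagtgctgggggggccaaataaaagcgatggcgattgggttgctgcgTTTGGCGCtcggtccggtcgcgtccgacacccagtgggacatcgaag
Arid1a, chr4:133753936-133754235, minus strand: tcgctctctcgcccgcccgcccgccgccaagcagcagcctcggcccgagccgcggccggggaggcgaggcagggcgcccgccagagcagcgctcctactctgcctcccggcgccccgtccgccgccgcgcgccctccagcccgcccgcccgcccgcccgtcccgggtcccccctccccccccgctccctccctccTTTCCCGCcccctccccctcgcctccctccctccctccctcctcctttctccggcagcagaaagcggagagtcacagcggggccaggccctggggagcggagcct
Suz12, chr11:79992856-79993155, plus strand: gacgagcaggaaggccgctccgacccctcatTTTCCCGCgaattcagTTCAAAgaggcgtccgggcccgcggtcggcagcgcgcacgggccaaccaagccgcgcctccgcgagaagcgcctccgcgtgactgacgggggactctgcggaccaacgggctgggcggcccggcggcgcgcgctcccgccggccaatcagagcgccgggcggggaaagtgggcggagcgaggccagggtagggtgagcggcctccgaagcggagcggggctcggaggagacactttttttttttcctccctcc
Suv39h2, chr2:3474937-3475236, minus strand: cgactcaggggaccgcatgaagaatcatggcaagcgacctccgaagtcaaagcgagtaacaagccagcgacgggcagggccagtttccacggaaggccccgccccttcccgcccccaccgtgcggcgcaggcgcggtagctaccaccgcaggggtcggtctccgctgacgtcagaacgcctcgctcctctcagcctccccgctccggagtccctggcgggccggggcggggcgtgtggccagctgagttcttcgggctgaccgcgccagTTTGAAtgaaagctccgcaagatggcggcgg
Dnmt1 and Ezh2 hold the same 8 letters, 33 bases and 3 bases downstream of the start used for the printed window. The ranges of their transcripts were 1.65-fold and 1.15-fold. Suz12 and Arid1a, which hold the other spelling before the start of the printed window, ranged 1.12-fold and 1.08-fold. Dnmt1 has 2 other windows, both upstream of the printed one, so its E2F letters lie further inside the gene when counted from those starts. Of these 2 windows, 1 holds a CHR sequence 199 bases before its start. Arid1a has 1 other window, also upstream of the printed one, with neither motif. The window of Suv39h2 holds a CHR sequence 19 bases after the start and no E2F sequence. The remaining wide ranging genes with a window, Tet1, Suv39h1, Hdac5 and Kat2a, hold neither. A match describes letters in this window and is not a measured site. The windows are rich in CG dinucleotides, with a median of 29 per window against 7 over all windows. Hdac9, the least abundant gene of the set per unit of length, has windows with 3 and 0, and Tet2 has the most, with 57.

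The H3K9 methyltransferases divided by kind. Suv39h1 and Suv39h2, which place trimethylation on pericentromeric heterochromatin, ranged widely. Suv39h1 was at 20.4, 20.9, 21.8, 30.9, 29.9 and 33.1 CPM, a range of 1.62-fold, with libraries 4, 5 and 6 above the others. Suv39h2 was at 2.83, 3.64, 3.04, 5.51, 4.14 and 5.99 CPM, a range of 2.09-fold, on 88 to 213 reads in its lowest and highest library. The counting interval of library 6 was 5.21 to 6.85 CPM, that of library 1 was 2.27 to 3.49 CPM, and those of libraries 2 and 5 overlapped. Opposite-strand genes overlap 14.6% of the exon bases of Suv39h1 and 9.98% of those of Suv39h2. Since the strand setting of the counting is not given in the sources used here, reads from those genes cannot be told apart. Setdb1, which silences retroelements, was at 76.0, 76.5, 78.8, 85.3, 87.2 and 85.5 CPM, with libraries 4, 5 and 6 above the others within 1.15-fold. Ehmt2 (G9a) and Ehmt1 (GLP), which together place dimethylation in euchromatin, were flatter. Ehmt2 was at 187, 189, 181, 167, 173 and 174 CPM and ranged 1.13-fold, and Ehmt1 was at 75.9, 79.1, 74.4, 72.7, 73.2 and 78.4 CPM and ranged 1.09-fold. Under total counts the range of Ehmt2 was 1.03-fold.

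Polycomb repressive complex 2 trimethylates H3K27 and keeps lineage genes silent, and Suz12 and Eed were among the most abundant genes of the set per unit of length. Ezh2, the catalytic subunit of dividing cells, was at 203, 198, 191, 176, 185 and 197 CPM and ranged 1.15-fold, with library 1 highest and library 4 lowest. Ezh1, the related catalytic subunit of resting cells, was at 139.8, 126, 127, 97.6, 99.5 and 94.4 CPM and ranged 1.48-fold, with libraries 1, 2 and 3 above the others. Suz12, the scaffold, was at 360.5, 357, 362, 324, 325 and 326 CPM and ranged 1.12-fold, or 1.04-fold under total counts. Eed, which binds the mark itself, was at 135, 147, 137, 129, 122 and 127 CPM and ranged 1.20-fold. An opposite-strand gene overlaps 6.82% of the exon bases of Eed, and how many of its reads this affects is not known. None of the 4 reached 1.5-fold, except Ezh1 with DESeq2 size factors, at 1.51-fold. Of 20 other Polycomb genes in the table, 4 (20%) reached 1.5-fold, against 27.6% of all genes averaging 1 CPM or more. They included Jarid2, a targeting subunit, at 1.64-fold, and Cbx2, a reader of the mark, at 1.54-fold. Phf1 and Phf19, which guide the complex to chromatin, were the others, at 1.61-fold and 1.62-fold. Jarid2 was at 208, 207, 196, 126, 145 and 149 CPM and Phf1 at 75.0, 74.7, 76.4, 50.1, 47.9 and 47.4 CPM, both higher in libraries 1, 2 and 3. Phf19 was at 4.25, 4.91, 3.70, 4.80, 6.04 and 5.43 CPM, with library 5 highest, and Cbx2 was at 17.3, 18.0, 18.4, 26.1, 23.1 and 26.7 CPM, higher in libraries 4, 5 and 6.

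The 3 H3K4 methyltransferases were level. Kmt2a, which acts at promoters, was at 339.7, 325, 296, 329, 347 and 331 CPM, and library 3 was the lowest at 1.17-fold under library 5. Kmt2d, which acts at enhancers, was also lowest in library 3 and highest in library 5, at 286, 278, 254, 262, 294 and 284 CPM and 1.16-fold. Kmt2c, its partner enzyme, was at 230.1, 215, 200.2, 195, 194 and 192 CPM, highest in library 1 at 1.20-fold over library 6. None of the 3 reached 1.5-fold.

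Of the enzymes of H3K36 and H3K79, Nsd2 stood out. Nsd2, which places dimethylation on H3K36, was at 76.4, 76.7, 75.7, 101, 106 and 117 CPM, a range of 1.54-fold. Libraries 4, 5 and 6 were above the others, and the counting interval of library 6, 113 to 121 CPM, lay clear of that of library 3, 72.9 to 78.7 CPM. Its relative Nsd1 stayed at 287, 277, 267, 278, 283 and 277 CPM, a range of 1.08-fold. The third member of that family, Nsd3, was not in the set of 47. Nsd3 was at 1102, 1024, 957, 611, 645 and 649.7 CPM and ranged 1.80-fold, with libraries 1, 2 and 3 highest. Setd2, the sole known trimethylase of H3K36 in mammals, was at 172, 165, 159.8, 149.5, 152 and 145 CPM and ranged 1.18-fold. Dot1l, the H3K79 methyltransferase, was at 111, 118, 105, 94.4, 99.8 and 105 CPM and ranged 1.25-fold, with library 2 highest. Among 21 other histone methyltransferases, Nsd3 and the arginine methyltransferases Prmt6 and Prmt7 ranged 1.5-fold or more.

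None of the 7 histone demethylases ranged 1.5-fold, where 27.6% of all genes averaging 1 CPM or more did, and 7 genes are few for such a share. Kdm5b, which removes H3K4 methylation, came nearest, at 362, 384, 353, 267, 262 and 266 CPM and 1.47-fold. Its relative Kdm5a was at 212, 211, 206, 179, 175 and 171 CPM and 1.24-fold. In both, every one of libraries 1, 2 and 3 was above every one of libraries 4, 5 and 6. The H3K36 demethylases Kdm2a and Kdm2b had opposite orders. Kdm2a was at 291, 303, 288, 236, 245 and 239 CPM, with libraries 1, 2 and 3 higher, and Kdm2b, which also brings Polycomb to CG islands, was at 74.1, 75.7, 76.1, 81.3, 83.6 and 87.3 CPM, with libraries 4, 5 and 6 higher. Their ranges were 1.28-fold and 1.18-fold, and 10.5% of the 50-base stretches of Kdm2b are shared with other annotated transcripts, a processed pseudogene among them. Opposite-strand exons overlap 7.60% of the exon bases of Kdm2b. Kdm1a, the H3K4 demethylase of the CoREST complex, ranged 1.10-fold around a median of 94.9 CPM. Kdm4a, which acts on H3K9 and H3K36, ranged 1.08-fold around 109 CPM. Kdm6b, which removes H3K27 methylation and is induced on activation of T cells and macrophages, ranged 1.08-fold around 203 CPM. Of 15 other demethylases, Kdm1b, Kdm3a and Riox1 ranged 1.5-fold or more, and Kdm3a, an H3K9 demethylase, was at 405, 410.0, 375, 285, 274 and 263 CPM.

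The histone deacetylases held 1 wide ranging gene and 1 gene at the edge of detection. Hdac5, a class IIa enzyme that shuttles between nucleus and cytoplasm, was at 55.0, 54.1, 46.9, 33.5, 33.7 and 31.4 CPM, a range of 1.75-fold. Libraries 1, 2 and 3 were above libraries 4, 5 and 6, and the counting intervals of library 1, 52.5 to 57.7 CPM, and library 6, 29.5 to 33.2 CPM, were far apart. The other class IIa enzymes did not share this pattern. Hdac7, known from thymocyte selection, was at 651, 675, 631, 568, 602 and 639 CPM and 1.19-fold. Hdac4 stayed between 85.0 and 92.7 CPM, although opposite-strand genes overlap 22.4% of its exon bases. Hdac9 was at 0.644, 0.520, 0.574, 0.765, 0.977 and 0.281 CPM, on 10 to 34 reads, where a floor of 3 reads stands for 0.0791 to 0.0966 CPM. The counting intervals of its library 5, 0.677 to 1.37 CPM, and library 6, 0.135 to 0.517 CPM, do not overlap, and that of library 1, 0.393 to 0.994 CPM, overlaps both.

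The class I deacetylases are the catalytic subunits of the Sin3, NuRD, CoREST and NCoR corepressors. Hdac1 was at 135, 129.9, 128, 120.4, 126 and 129 CPM and ranged 1.12-fold, but 58.7% of the 50-base stretches of its transcript are shared with processed pseudogenes, and how such reads were counted is not given in the sources used here. Hdac2, the paralogue found in the same complexes, was at 156, 160.0, 147, 122, 127 and 123 CPM and ranged 1.31-fold, with libraries 1, 2 and 3 above the others. Hdac3, the enzyme of NCoR, stayed between 56.0 and 67.2 CPM. Of 13 corepressor and NuRD subunits around them 0 reached 1.5-fold, and the widest, Tbl1xr1 of the NCoR complex, ranged 1.48-fold. Hdac6, a mostly cytoplasmic tubulin deacetylase, was at 18.2, 17.2, 18.9, 20.3, 22.9 and 22.7 CPM and ranged 1.33-fold, with libraries 4, 5 and 6 above the others. Sirt1, the NAD-dependent deacetylase, was at 32.0, 31.4, 34.6, 31.2, 29.3 and 26.8 CPM and ranged 1.29-fold, with library 6 lowest. None of 9 other deacetylases and sirtuins reached 1.5-fold.

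Among the acetyltransferases, Kat2a alone ranged 1.5-fold or more. Kat2a (GCN5), the catalytic subunit of the SAGA coactivator, was at 20.4, 23.4, 23.5, 33.3, 35.3 and 34.5 CPM, a range of 1.73-fold. Libraries 4, 5 and 6 were above the others, and the counting interval of library 5, 33.4 to 37.3 CPM, lay clear of that of library 1, 18.8 to 22.1 CPM. Kat2b (PCAF), its close relative in the same complex, was at 51.6, 44.3, 45.3, 44.6, 40.5 and 40.4 CPM and ranged 1.28-fold, with library 1 highest and library 6 lowest. A processed pseudogene, Kat2b-ps, shares 7.6% of the 50-base stretches of Kat2b. Ep300, which acetylates histones at enhancers, was at 264, 257, 246, 208, 215 and 211 CPM and ranged 1.27-fold, with libraries 1, 2 and 3 above the others. Its paralogue Crebbp stayed at 113, 111, 109.6, 112, 113 and 105 CPM, a range of 1.08-fold. Kat5 (Tip60), which acts in DNA repair, and Kat6a (MOZ), known from blood stem cells, ranged 1.09-fold and 1.12-fold around medians of 38.3 and 138 CPM. Opposite-strand exons overlap 12.1% of the exon bases of Kat5. Of 8 other acetyltransferases only Hat1, which acetylates newly made histone H4, passed 1.5-fold, at 30.7, 28.9, 29.8, 42.9, 39.9 and 44.1 CPM.

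The 3 chromatin remodellers were level. Chd4, the ATPase of NuRD, was at 512, 515, 490.2, 444, 466 and 478 CPM and ranged 1.16-fold. Smarca4 (BRG1), the ATPase of the BAF complex, was at 94.9, 101, 103, 102, 104 and 111 CPM, lowest in library 1 and highest in library 6 at 1.17-fold. Arid1a, a DNA-binding BAF subunit, was at 246, 245, 242, 232, 235 and 229 CPM and ranged 1.08-fold. The same held for the subunits around them, with 0 of 21 other remodelling genes at 1.5-fold and a median of 1.15-fold. Over all genes averaging 1 CPM or more, 27.6% reached 1.5-fold and the median was 1.29-fold.

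Ratios between related enzymes within a library do not depend on how libraries are scaled. They were formed from FPKM, so each compares levels per length. The ratio that varied most was Kat2a over Kat2b, at 0.703, 0.937, 0.920, 1.33, 1.55 and 1.52, a 2.20-fold spread. It lay below 1 in libraries 1, 2 and 3 and above 1 in libraries 4, 5 and 6. Which of the pair leads rests on the lengths implied by the deposited values, 3.05 kb for Kat2a and 5.42 kb for Kat2b. In CPM, without division by length, Kat2b was above Kat2a in every library. Ezh2 over Ezh1 was 1.83, 1.98, 1.91, 2.28, 2.35 and 2.63, highest in library 6 and above 1 throughout. Hdac1 over Hdac2 was 1.15, 1.08, 1.16, 1.31, 1.32 and 1.40, higher in libraries 4, 5 and 6. In CPM, Hdac1 was below Hdac2 in libraries 1 to 5, so its lead also rests on the implied lengths, 2.05 kb against 2.72 kb. The 58.7% of Hdac1 stretches shared with processed pseudogenes limit this ratio too. Ep300 over Crebbp was higher in libraries 1, 2 and 3, at 2.86, 2.84, 2.75, 2.28, 2.32 and 2.46. Ehmt2 over Ehmt1 was 2.60, 2.51, 2.56, 2.42, 2.49 and 2.33, and Suv39h1 over Suv39h2 was 8.26, 6.59, 8.24, 6.43, 8.30 and 6.35 in libraries 1 to 6. The few reads of Suv39h2 limit the precision of its ratio.

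**Figure D4:**
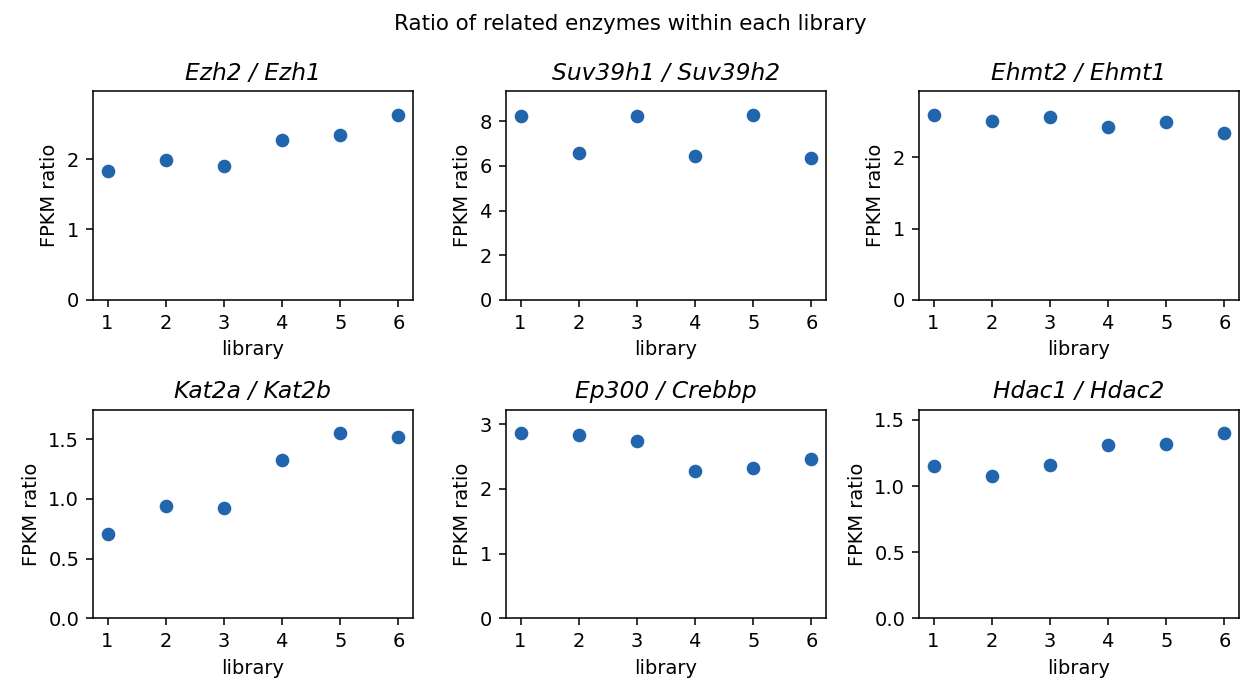
FPKM ratio of 6 pairs of related enzymes (vertical axes, from 0) in libraries 1 to 6 (horizontal axes), 1 point per library. Kat2a over Kat2b lies below 1 in libraries 1 to 3 and above 1 in libraries 4 to 6, a crossing that depends on the gene lengths used. Ehmt2 over Ehmt1 stays between 2.33 and 2.60.

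Per unit of length, the genes spanned several orders of magnitude. Suz12 was the most abundant, at 76.9 to 80.0 FPKM over the 6 libraries, followed by Chd4 at 67.7 to 72.2 FPKM, Eed at 61.9 to 68.4 FPKM and Hdac1 at 60.4 to 65.2 FPKM. The ranges of Eed and Hdac1 overlapped, so their order is not fixed by these libraries. Ezh2, Hdac2, Hdac7 and Kdm5b formed the next tier, with medians from 38.1 to 50.5 FPKM. These places rest on the gene lengths implied by the deposited tables. Hdac7 had the highest mean CPM of the set, at 628 CPM, and an implied length of 15.5 kb. Its exons annotated for the assembly GRCm38 cover 6755 bases, and a shorter length would raise its FPKM. At the low end Hdac9 was at 0.0114 to 0.0401 FPKM, Suv39h2 at 0.576 to 1.31 FPKM, Tet1 at 0.785 to 1.51 FPKM and Dnmt3b at 1.06 to 1.71 FPKM. Within the DNA methyltransferases Dnmt1 led, with a median of 23.2 FPKM against 8.42 FPKM for Dnmt3a. Lengths implied by the deposited tables were 24.6 kb for Dnmt3a and 6.16 kb for Dnmt1, so a transcript shorter than that length would have its FPKM understated. Tet3 and Tet2, at medians of 18.1 and 14.9 FPKM, stood well above Tet1. Of the 7 widest ranging genes, 6 had a median under 10 FPKM, and Dnmt1 was the exception.

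**Figure D5:**
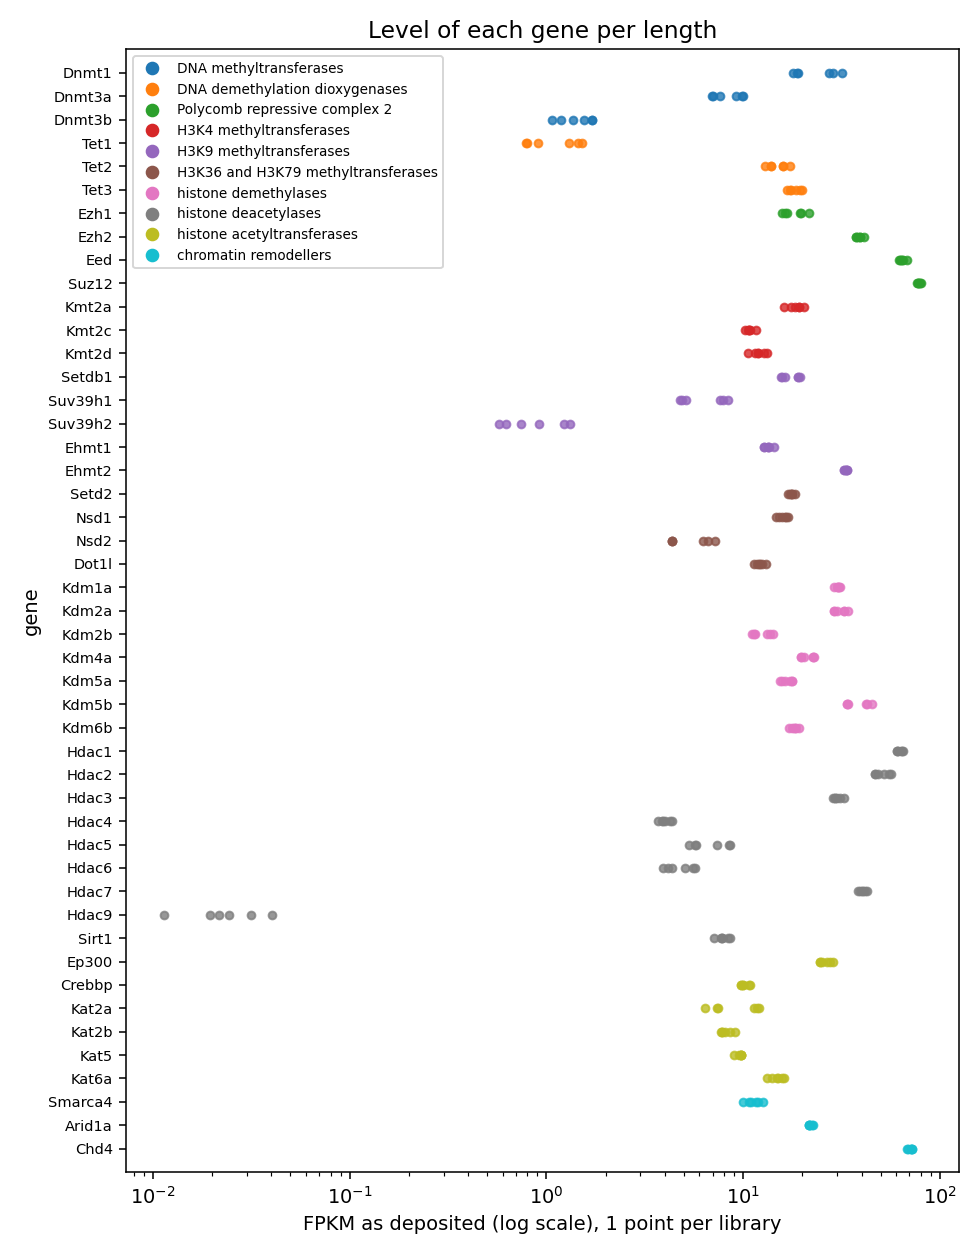
Deposited FPKM (horizontal axis, log scale) of all 47 genes (vertical axis, coloured by class), 1 point per library. Suz12, Chd4, Eed and Hdac1 lie at the right, between 60.4 and 80.0 FPKM, and Hdac9 lies alone at the left, at 0.0114 to 0.0401 FPKM. The order of genes depends on the gene lengths behind the deposited values.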

How the data were processed

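Per the labels' protocols, total RNA was extracted with TRIzol and made into libraries with the VAHTS Universal V5 kit. Tools listed in the submitters' processing notes are HISAT2, HTSeq, fastp, DESeq2 and R 3.2.0, with GRCm39 as the assembly. Annotation and strand setting were not given in the sources used here. Raw read counts and FPKM values per gene were deposited by the authors in 2 tables, 1 column per library. The deposited FPKM values equalled counts over a gene length and the library total within a relative 6.89e-08, so they are another scaling of the same reads and no separate evidence. No 2 libraries agreed within counting noise, the smallest mean chi-square per gene between 2 of them being 3.98.

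Counts were scaled with TMM factors of edgeR 4.0.16 (0.958 to 1.04) in R 4.3.3, and divided by the scaled library total to give CPM. Ranges use log2 CPM with a prior count of 2, which shrinks those of low genes. The work was done with matplotlib 3.10.9, scipy 1.17.1, pandas 2.3.3 and numpy 2.4.6 under Python 3.11.15. Genes had to average 1 CPM or more over all 6 libraries, a filter that does not depend on which libraries are high. The thresholds were 1.5-fold and 2-fold. Exact Clopper-Pearson 95% intervals and the floor of 3 counts cover counting error only, since reads amplified by PCR without molecular identifiers are not independent molecules. With no groups in the labels, no test was run and no p-value is given. The procedure was tested on simulated data.

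The members, the 8 lists of related genes and the list of cell cycle markers were chosen with earlier results of these data known. Values in every library are given for genes ranging 1.5-fold or more, for the genes with the highest and lowest mean FPKM of each class, for 6 paralogue pairs, and for related genes ranging 2-fold or more. Others named were chosen after their values were seen. Shared sequence was counted over 50-base stretches of GENCODE transcripts of GRCm38. Promoter windows come from RefSeq, and that assembly differs from the authors' one, so its coordinates are given for the printed windows only. Windows of Nsd1, Nsd2, Kdm2a, Kdm5a, Kdm6b, Hdac1, Hdac3 and Kat6a were not used here. Alternatives were each library left out in turn, a prior count of 0.5, no minimum level or one of 5 CPM, total counts, DESeq2 1.42.0 size factors, and FPKM plus a pseudocount of 0.1.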

Additional observations from a re-analysis of the deposited data

How the results depend on the processing

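The number of the enzymes ranging 1.5-fold or more stayed between 5 and 8 under the 12 alternatives. Tet1, Suv39h1 and Hdac5 passed that threshold under all 12, and Suv39h2 under all 11 that keep it. Dnmt1 (1.48-fold) and Nsd2 (1.40-fold) fell short of it without library 6, and Kat2a (1.49-fold) fell short without library 1. Ezh1 passed it with DESeq2 size factors (1.51-fold), and Dnmt3b with total counts (1.60-fold) and FPKM (1.56-fold). The number at 2-fold or more was 0 with a minimum of 5 CPM, 2 with no minimum, and 0 to 1 with 1 library left out. Among the related genes the number at 2-fold was 4 with no minimum and 1 to 2 with 1 library left out. All genes at 1.5-fold numbered 1664 with a minimum of 5 CPM and 11757 with none, and at 2-fold 450 and 6870. These follow from how many low genes each minimum admits. Of 551 ranges of single enzymes under an alternative, 461 moved by less than counting error, 28 were larger and 62 smaller beyond it. Changing the minimum level leaves the range of a gene as it was, so the ranges under no minimum or 5 CPM could not move. Most of the larger moves came under total counts and FPKM, where the ranges of most enzymes moved beyond counting error. Depth limits Hdac9, on 10 to 34 reads, and Suv39h2, on 88 to 213 reads. No paired analysis was possible because the labels put no library in a group.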

Other observations

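The values of each gene were ordered over the 6 libraries and the largest gap between neighbours was located, as a description of libraries that the labels put in no group. For 12 of the 46 enzymes the gap had libraries 1, 2 and 3 above it, and for 8 it had libraries 4, 5 and 6 above it. Over all 11516 genes these 2 placements made up 18.7% and 16.1%. The balance depends on the scaling: under total counts the placements held 8 and 12 of the enzymes, and 11.1% and 27.8% of all genes. Suz12, Ehmt2, Setd2 and Arid1a then no longer had libraries 1, 2 and 3 above the gap, and Tet3, Nsd1, Kdm4a and Hdac6 had libraries 4, 5 and 6 above it. With TMM the 12 were Tet2, Ezh1, Suz12, Ehmt2, Setd2, Kdm2a, Kdm5a, Kdm5b, Hdac2, Hdac5, Ep300 and Arid1a, and the 8 were Dnmt1, Dnmt3a, Tet1, Setdb1, Suv39h1, Nsd2, Kdm2b and Kat2a. Suz12 had the cleanest gap, which took 81.7% of its range, although the 6 values were 360.5, 357, 362, 324, 325 and 326 CPM and the gap shrinks when libraries are scaled by total counts. Kdm5b followed, with a gap of 73.4% of its range between 353 CPM in library 3 and 267 CPM in library 4. Suv39h2 was divided otherwise, with libraries 4 and 6, at 5.51 and 5.99 CPM, above a gap that left library 5 at 4.14 CPM with the rest. For Kmt2a and Nsd1 the gap set library 3 below the 5 others.

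The related genes held ranges as wide in either direction. Nsd3, an H3K36 methyltransferase, was at 1102, 1024, 957, 611, 645 and 650 CPM. Prmt6, an arginine methyltransferase that opposes H3K4 methylation, was at 6.34, 7.75, 8.49, 9.44, 10.5 and 12.1 CPM. Apart from the related genes, a list of 4 regulatory T cell markers held 2 that ranged 1.5-fold or more, Foxp3 and Ctla4. The other markers on it, Il2ra and Ikzf2, did not. Over all genes averaging 1 CPM or more, 27.6% did. Ctla4, an inhibitory receptor that regulatory T cells carry and activated T cells gain, was at 1526, 1559, 1548, 791, 771 and 809 CPM. Foxp3 was at 7.37, 7.66, 7.86, 11.9, 13.4 and 11.2 CPM.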
